A study of Mus musculus with 2 samples.

Results

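The cells described here are thymic CD8 T cells that hold messenger RNA of Gzmk, which encodes granzyme K, a protease of cytotoxic granules. A cell belonged to the set when its barcode had at least 500 genes and at most 10% mitochondrial UMIs (unique molecular identifiers, the count of captured RNA molecules), at least 2 UMIs of Cd8a and Cd8b1 together, at least 1 UMI of Gzmk, at least 1 UMI of Cd3d, Cd3e and Cd3g together, and no UMI of Cd4, Rag1 or Trav11. Of 13298 cells kept in the series, 462 met the rule, 61 in the control library and 401 in the cKO library. The measured values of Gzmk, Cd8a, Cd8b1, the Cd3 genes, Cd4, Rag1 and Trav11 chose these cells, so their levels and the number of cells are a description. In the text they are called Gzmk+ CD8 cells, and the CD8 T cells that met every other step but held no Gzmk UMI are called Gzmk-negative CD8 cells.

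The study profiled YFP+ cells sorted from mouse thymus by droplet single-cell RNA sequencing, a method that counts 3′ ends of messenger RNA cell by cell. The control genotype was Tbx21Cre Rosa26-YFP+ and the cKO genotype was Tbx21Cre Ets1F/F Rosa26-YFP+, in which both Ets1 alleles are flanked by loxP sites. Both genotypes carry the Cre, which is expressed from Tbx21, the T-bet gene. YFP therefore marks any cell in which Cre has acted, whatever its lineage, and the sort was not limited to the invariant natural killer T (iNKT) cells named in the sample titles. Each genotype is 1 library, made from the thymuses of 2 mice that cannot be told apart in the files, and the ages of the mice are not given. No difference between genotypes has a replicate check, no test between libraries was made, and every interval below is a 95% interval that covers counting error only.

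Cytotoxic CD8 T cells kill by releasing perforin, which opens the target membrane, and granzymes, which cleave proteins inside the target. After long or repeated receptor stimulation they can carry inhibitory receptors such as PD-1, LAG-3 and TIM-3 together with the transcription factor TOX, a state called exhaustion. Granzyme K, CCL5 and low levels of naive-cell genes are known from memory and effector CD8 T cells that have met antigen. Most CD8 T cells in a thymus are newly made and naive, but iNKT1 cells, resident memory-like T cells and cells returning from the blood are also found there.

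The libraries differed before any cells were chosen. There were 35210431 UMIs over 10102 barcodes in the control and 39979742 UMIs over 11206 barcodes in the cKO matrix. Barcodes over the mitochondrial limit made up 6.76% of the control and 28.6% of the cKO barcodes, and the kept cells had a median of 2666 UMIs in the control and 5533 in the cKO library. RNA of a gut epithelium marker list was found in 2.58% of kept control cells and 52.3% of kept cKO cells. Among the Gzmk+ CD8 cells, 0 of 61 control and 126 of 401 cKO cells (31.4%) held a UMI of that list. The 2 libraries shared 29 barcodes, counted before any cell filter, of which 1 belonged to a control Gzmk+ CD8 cell and 0 to a cKO one.

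In the control library the Gzmk+ CD8 cells were 0.825% of kept cells (0.632 to 1.06%) and 10.5% of the 583 CD8 T cells defined by the other steps of the rule (8.10 to 13.2%). In the cKO library they were 6.79% of kept cells (6.16 to 7.47%) and 85.0% of 472 CD8 T cells (81.4 to 88.1%). The cKO CD8 T cells were thus mostly Gzmk+, and the control CD8 T cells mostly Gzmk-negative. A single molecule of Gzmk decides membership, so depth bears on the share. With every cell thinned to 1500 UMIs and shallower cells left out, 0.346% of 5201 control cells and 5.19% of 4606 cKO cells met the rule, which were 5.73% of 314 and 57.9% of 413 CD8 T cells. The share of cKO kept cells without any cell that held a gut marker UMI was 9.76%.

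The Gzmk+ CD8 cells had a median of 6898 UMIs in the control library (1086 to 27499) and 9032 in the cKO library (1366 to 34752). Gzmk itself had a median of 2 UMIs and a highest value of 22 in control cells, of which 28 held exactly 1. In cKO cells the median was 6 and the highest value 47, with 42 cells at exactly 1. Cd8a and Cd8b1 together had a median of 9 UMIs in control cells (2 to 26) and 26 in cKO cells (3 to 125). Cells just inside the Gzmk threshold lay between the cells outside it and those further in for Ccl5, but not for every gene. For Ccl5, the level in CPM (a gene's UMIs summed over the cells and scaled by their total UMIs to 1e+06) was 4911 in cKO Gzmk-negative cells, 12737 in cKO cells with 1 Gzmk UMI and 27342 in cKO cells with 2 or more. The control values for Ccl5 in the same order were 2215, 6671 and 12105 CPM. For Gzma the cKO values in that order were 778, 4096 and 15469 CPM and the control values 133, 84.1 and 1783 CPM. Lag3 was at 41.3, 36 and 78.8 CPM in the cKO and at 4.35, 0 and 67.3 CPM in the control library, so cells with 1 Gzmk UMI were not above those with none. At the Cd8 threshold, cells with Gzmk and CD3 that held 1 Cd8 UMI numbered 11 in the control and 5 in the cKO library, and those with no Cd8 UMI 44 and 49.

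The 6 marker genes of the named cell type were not held alike. Beside Gzmk, Cd8a and Cd8b1, which the rule used, Ccl5 was found in 98.4% of the control set and 94.8% of the cKO set. Lag3 was found in 6.56% and 30.4%, and Tox2 in 1.64% and 35.2%, without thinning. The control cells thus rarely showed Lag3 or Tox2, and the cells are called by their rule.

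Ets1, the transcription factor gene that the floxed allele targets, was measured at 413 CPM in control Gzmk+ CD8 cells (355 to 477), with a UMI in 51 of 61 cells. In cKO Gzmk+ CD8 cells it was measured at 136 CPM (125 to 147), with a UMI in 251 of 401 cells. The cKO level was 3.05-fold lower (2.56 to 3.6), so the label and the targeted gene go the same way in these cells, although Ets1 RNA remained. Which exons the allele removes is not given, and 3′ reads can come from RNA of a deleted allele, so the remaining level does not count undeleted cells. In Gzmk-negative CD8 cells Ets1 was at 322 CPM in the control and 188 CPM in the cKO library. Tbx21, whose promoter drives Cre, was at 65 CPM in the control and 49.5 CPM in the cKO set, 1.33-fold lower (0.858 to 1.95), which did not meet the size rule explained next. A lincRNA gene, Gm3331, lies 55.9 kb past the end of Ets1 on chromosome 9 and was picked out after its values were seen. It had 0 UMIs in the control cells and 106 CPM in the cKO cells, where 243 cells (60.6%) held it, at least 15.7-fold higher against a floor of 3 counts for the control sum.

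To compare genotypes gene by gene, UMIs were summed over the Gzmk+ CD8 cells of each library. A gene was called higher or lower when the ratio was at least 1.5, the higher group reached 20 CPM and the counting interval of the ratio excluded 1. Of 6138 genes that reached 20 CPM in either library, 681 (11.1%) were higher and 499 (8.13%) lower in the cKO set, and the median log2 ratio over all of them was 0.08. Scaling by the median gene ratio moved all log2 ratios by -0.10 and the share of calls that were higher from 57.7% to 43.6%. Leaving mitochondrial and ribosomal protein genes out of the totals moved them by -0.17 and that share to 34.2%. Without cells holding a gut marker UMI, 686 genes were higher, 610 of them the same genes as with all cells.

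**Figure D1:**
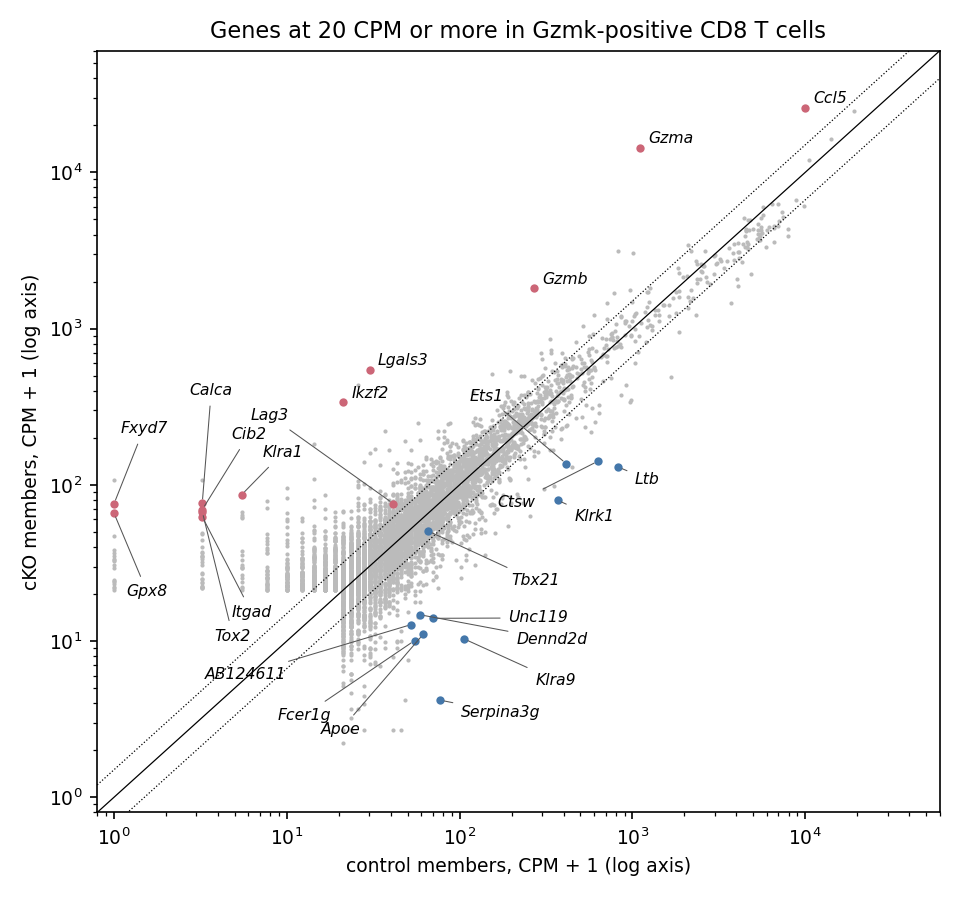
Level in cKO Gzmk+ CD8 cells (vertical) against control Gzmk+ CD8 cells (horizontal), each as CPM + 1 on a log axis, 1 point per gene that reached 20 CPM in either; the solid line is equality, the dotted lines a 1.5-fold ratio, and coloured points are named genes. Gzma, Lgals3 and Ikzf2 lie above the band and Serpina3g, Klra9 and Ltb below it, while the points at the left edge have 0 or few control UMIs.

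Granule genes were led by the granzymes. Gzma, which encodes a tryptase-like granzyme, was at 1103 CPM in the control and 14387 CPM in the cKO set, 13-fold higher (11.9 to 14.3). Gzmb, the granzyme that cleaves caspases, was at 267 CPM in the control and 1808 CPM in the cKO set, 6.74-fold higher (5.65 to 8.19). The control sums came from few cells, since 16 of 61 cells held Gzma and 5 of them held 95.1% of its 492 UMIs. In the cKO library 311 of 401 cells held Gzma and the top 5 cells held 6.83% of its UMIs. Counted per 10000 UMIs of a cell, Gzma had a median of 0 in control cells (highest 239) and 101 in cKO cells (highest 882). The ranges overlap, because 90 cKO cells also held none.

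With cells thinned to 1500 UMIs, Gzma was detected in 19% (9.87 to 31.4%) of 58 control and 69.4% (64.6 to 73.9%) of 399 cKO Gzmk+ CD8 cells, where the unthinned shares were 26.2% and 77.6%. B cells, which should lack it, held a Gzma UMI in 3.66% of cells in the thinned cKO library, so the cKO share is far above that background. Thinned Gzmb was detected in 8.62% (2.86 to 19%) of control and 59.1% (54.1 to 64%) of cKO cells, against 0.610% of cKO B cells. In the cKO library granzyme A and B RNA were mostly held by the same cells, with Gzmb in 91.3% of the cells that held Gzma and in 20% of those that did not. Of the control cells, 16 held Gzma and 17 held Gzmb, but only 8 held both. Deeper cells hold more of both, and depth is shared by the pair.

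Of the 14 granule genes listed, 13 reached 20 CPM, 4 were higher and 2 lower in cKO cells, with a median log2 ratio of 0.26 beside 0.08 over all genes. Nkg7, a granule membrane protein, was at 2101 CPM in the control and 3429 CPM in the cKO set, 1.63-fold higher (1.53 to 1.75). Prf1, which encodes perforin, was at 108 CPM in the control and 166 CPM in the cKO set, 1.53-fold higher (1.15 to 2.11). Neither gene met the rule with mitochondrial and ribosomal protein genes left out. The Prf1 call also ended under median-ratio scaling (log2 ratio 0.51), at a 5% mitochondrial limit (0.58) and without cells holding gut RNA (0.58). Ctsw, which encodes the lymphocyte protease cathepsin W, went the other way, at 630.2 CPM in the control and 141 CPM in the cKO set, 4.49-fold lower (3.87 to 5.18). Gzmm, another granzyme gene, was at 76.3 CPM in the control and 29.2 CPM in the cKO set, 2.64-fold lower (1.73 to 3.86). Fasl, the ligand of the death receptor Fas, was at 92 CPM in the control and 112 CPM in the cKO set and did not meet the rule.

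The promoters of Gzmk, which chose the cells, and of Gzma and Gzmb are printed because ETS, T-box and RUNX factors are the families that this genotype and cell type bring in. Each is the 250 bases before the RefSeq transcription start in the GRCm38.p6 table, with the start at the right end. All lie on the minus strand, Gzmk at chr13:113180966-113181215, Gzma at chr13:113100982-113101231 and Gzmb at chr14:56262335-56262584. Capitals mark an ETS element (CCGGAA), a T-box element (GGTGTGA) or a RUNX element (TGTGGT), searched on both strands. No matches overlap in these windows. Shorter ETS strings such as GGAA were not searched, so unmarked letters can hold them.
Gzmk: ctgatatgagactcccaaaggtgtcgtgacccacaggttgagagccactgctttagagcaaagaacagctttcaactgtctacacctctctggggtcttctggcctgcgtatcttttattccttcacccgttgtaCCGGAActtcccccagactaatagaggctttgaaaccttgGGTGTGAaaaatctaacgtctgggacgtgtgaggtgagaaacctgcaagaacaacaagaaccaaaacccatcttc
Gzma: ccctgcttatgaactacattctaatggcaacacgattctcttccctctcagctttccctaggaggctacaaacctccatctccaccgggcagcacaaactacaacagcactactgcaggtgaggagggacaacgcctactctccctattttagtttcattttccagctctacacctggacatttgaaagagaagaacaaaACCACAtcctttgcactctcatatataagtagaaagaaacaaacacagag
Gzmb: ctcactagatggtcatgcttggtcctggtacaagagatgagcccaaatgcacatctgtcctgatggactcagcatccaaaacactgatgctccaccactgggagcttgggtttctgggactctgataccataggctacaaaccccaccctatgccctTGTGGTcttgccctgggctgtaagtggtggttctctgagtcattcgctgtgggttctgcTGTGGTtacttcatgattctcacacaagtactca
The Gzmk window holds the ETS element 115 bases and the T-box element 75 bases before the start. In the Gzma window the RUNX element is on the other strand and is printed as its reverse complement, ACCACA, 50 bases before the start. The Gzmb window holds the RUNX element at 93 and 34 bases before the start. Among 32851 promoter windows searched alike, 12.0% hold the ETS element CCGGAA, 3.33% the T-box element and 14% the RUNX element. These matches describe the letters only.

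**Figure D2:**
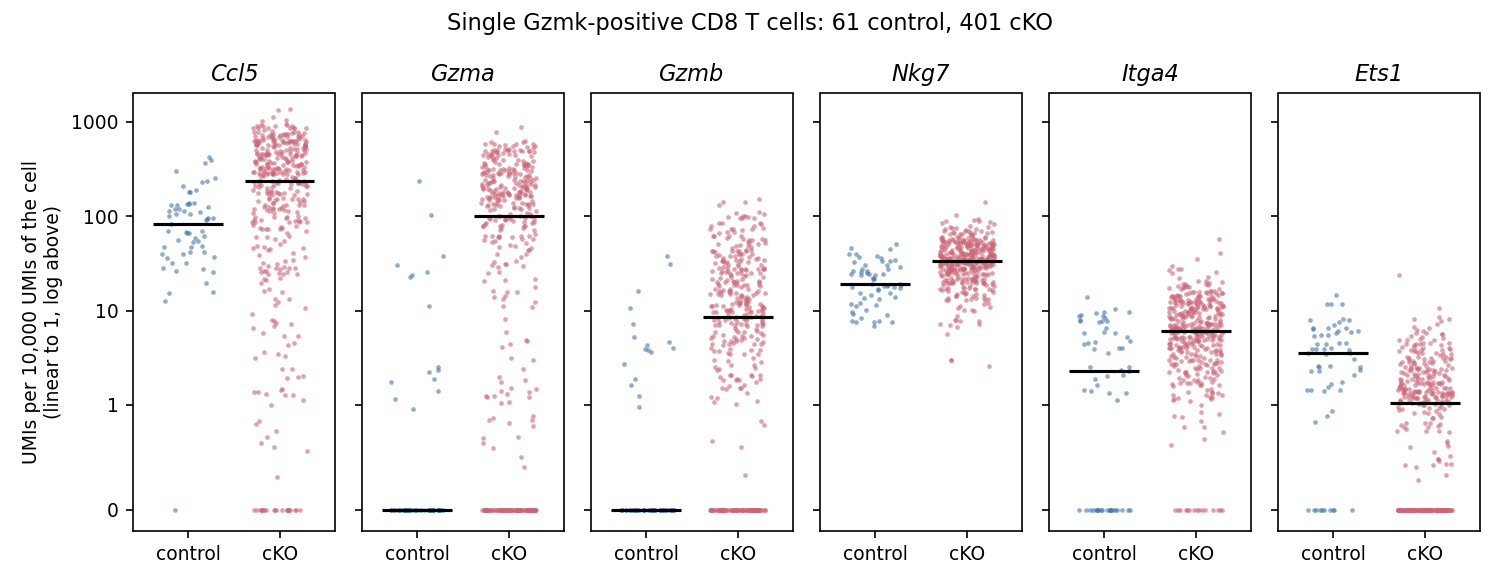
UMIs per 10000 UMIs of a cell for 6 genes (vertical axis linear to 1 and log above), 1 point per Gzmk+ CD8 cell, 61 control and 401 cKO, with the median as a bar. Gzma and Gzmb have a median of 0 in control cells and of 101 and 8.47 in cKO cells, and for all 6 genes the ranges of the libraries overlap.

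Among secreted factors, the chemokine genes Ccl5 and Ccl3 were higher in the cKO cells, and Ccl4 and Ifng did not meet the rule. Ccl5, a marker of the cell type and a chemokine that draws T cells and monocytes, was at 9931 CPM in the control and 25952 CPM in the cKO set, 2.61-fold higher (2.54 to 2.69). Its per-cell median was 82.9 per 10000 UMIs in control (0 to 429) and 238 in cKO cells (0 to 1359). The libraries thus differed in the median level of Ccl5 and little in its presence. The levels overlapped widely, since the lower quartile of the cKO cells was 54.4. Ccl3, a chemokine made by stimulated T cells and macrophages, was at 13.5 CPM in the control and 78.6 CPM in the cKO set, 5.4-fold higher (2.66 to 16), from 6 control UMIs. Ccl4, a close relative of Ccl3, was at 182 CPM in the control and 239.6 CPM in the cKO set and did not meet the rule. Ifng, which encodes interferon gamma, was at 141 CPM in the control and 145 CPM in the cKO set, 1.02-fold higher (0.789 to 1.35). Neither Ccl4 nor Ifng therefore showed a difference of the size the rule asks for.

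The chemokine gene Xcl1 and the cytokine gene Ltb were lower. Xcl1, which draws cross-presenting dendritic cells, was at 121 CPM in the control and 29.6 CPM in the cKO set, 4.11-fold lower (2.91 to 5.68). Ltb, which encodes lymphotoxin beta, a membrane cytokine that acts on thymic and lymph node stroma, was at 828 CPM in the control and 129 CPM in the cKO set, 6.43-fold lower (5.61 to 7.35). After thinning, Ltb was still read in 60.3% of the control but 13% of the cKO set. Of 14 chemokine and cytokine genes listed, 6 reached 20 CPM, 2 of them higher and 2 lower. Il10, an anti-inflammatory cytokine, stayed under that limit, with 0 CPM in the control and 17.6 CPM in the cKO cells.

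Inhibitory receptors and their transcription factors were mostly higher in the cKO cells. Of 20 exhaustion and checkpoint genes, 14 reached 20 CPM, 8 were higher and 1 lower, with a median log2 ratio of 0.78 beside 0.08 over all genes. Under each of the other 2 scalings 7 were higher and 1 lower. Pdcd1, which encodes PD-1, was at 13.5 CPM in the control and 108 CPM in the cKO set, 7.42-fold higher (3.66 to 22). Havcr2, which encodes TIM-3, was at 8.97 CPM in the control and 47.8 CPM in the cKO set, 4.75-fold higher (2.05 to 19.7). Entpd1, the ATP-degrading enzyme CD39, was at 13.5 CPM in the control and 35.3 CPM in the cKO set, 2.43-fold higher (1.18 to 7.26). Each rests on 6 or fewer control UMIs, which the wide intervals show.

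Lag3, which encodes an inhibitory receptor for MHC class II, was at 40.4 CPM in the control and 74.7 CPM in the cKO set, 1.8-fold higher (1.15 to 3.16). Of the 18 control UMIs of Lag3, 15 came from 1 cell, and only 4 of 61 control cells held any, against 122 of 401 cKO cells. The Lag3 call ended where membership asked for 2 Gzmk UMIs (log2 ratio 0.19) or at most 5% mitochondrial UMIs (0.64). After thinning, 3.45% (0.420 to 11.9%) of control and 12.5% (9.45 to 16.2%) of cKO cells held Lag3, intervals that overlap. Ctla4, which competes with CD28 for its ligands, was at 44.9 CPM in the control and 34 CPM in the cKO set and did not meet the rule. Tigit, another inhibitory receptor gene, was under 20 CPM in both, at 2.24 CPM in the control and 16.7 CPM in the cKO set.

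Of the TOX family, Tox was at 80.7 CPM in the control and 183 CPM in the cKO set, 2.24-fold higher (1.63 to 3.27). Tox2, a relative of Tox and a marker of the cell type, was at 2.24 CPM in the control and 66.4 CPM in the cKO set and 19.8-fold (5.27 to 1173) higher, a ratio that rests on 1 control UMI. In thinned cells the shares with Tox2 were 0 of 58 in the control set, where up to 5.17% could go unseen, and 9.02% of cKO cells. Batf, an AP-1 factor of effector differentiation, was at 26.9 CPM in the control and 101 CPM in the cKO set, 3.6-fold higher (2.12 to 7.32). Maf, a factor of interleukin 10 production, was 1.64-fold higher (1.03 to 2.93), a call that did not hold under the other scalings. Nr4a2, a factor induced by receptor signals, was the 1 gene of the list that was lower, 1.6-fold lower (1.12 to 2.2).

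Checkpoint genes were held together in part of the cKO cells. Among 131 cKO cells with a Pdcd1 UMI, 61.8% also held Lag3, against 15.2% of the other cKO cells. For Tox the shares were 87.0% and 59.6%, and for Tox2 45.8% and 30%. Deeper cells are more likely to hold any gene, so these shares describe joint detection and include depth. Levels of the same genes also differed between the libraries outside the set. In Gzmk-negative CD8 cells 11 of the listed genes reached 20 CPM, 9 higher and 0 lower in the cKO library. Their median log2 ratio was 1.57 beside 0.28 over all genes, so the shift was not particular to the Gzmk+ cells. Between cKO Gzmk+ and Gzmk-negative cells, 8 of 15 were higher and 3 lower (Cd160, Btla and Nr4a3), with a median of 0.63 beside 0.02. In Gzmk-negative CD8 cells Pdcd1 was at 4.62 CPM in the control and 59.9 CPM in the cKO library, Tox at 30.5 and 118 CPM, and Lag3 at 4.35 and 41.3 CPM.

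**Figure D3:**
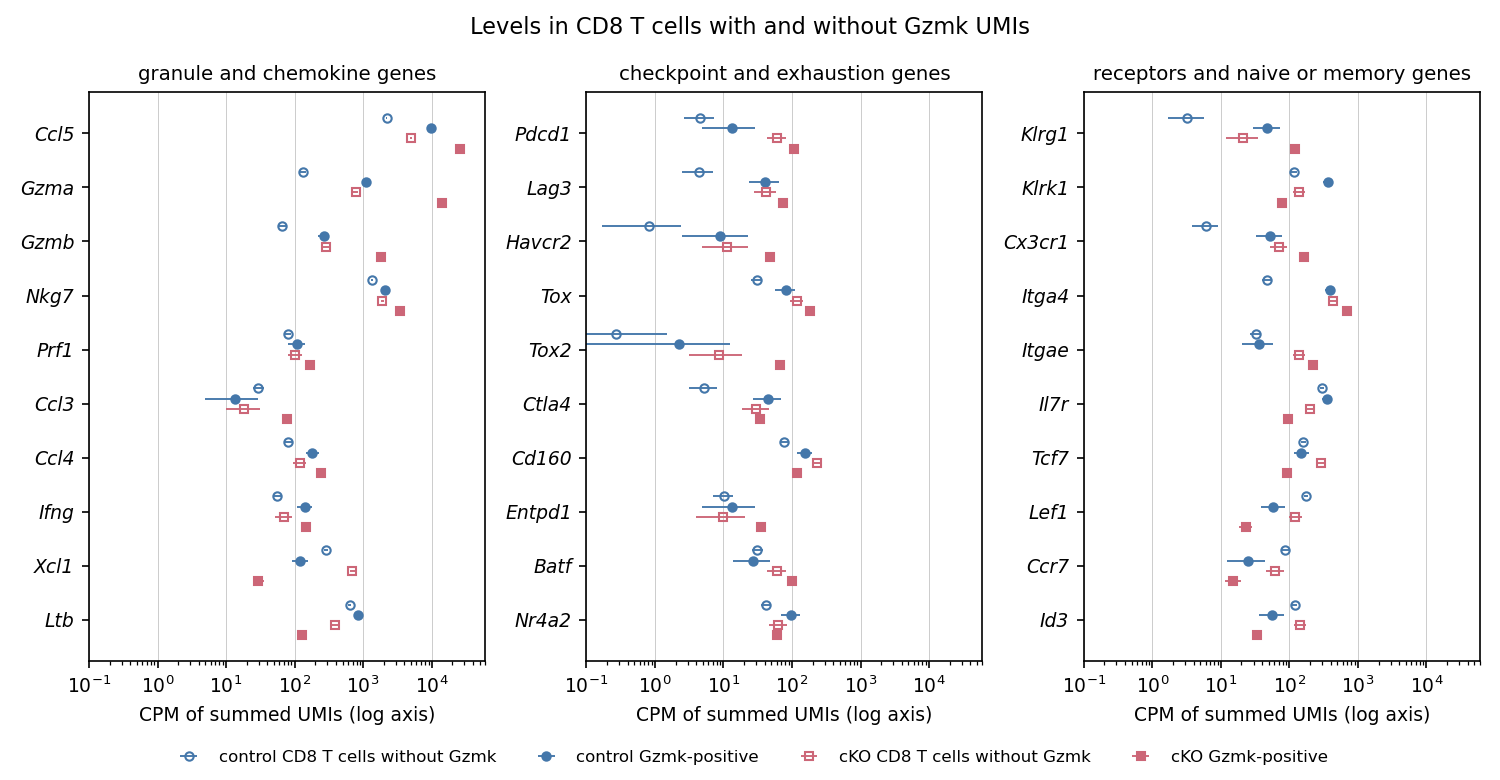
Levels in CPM of summed UMIs (log axis) of 30 genes in the Gzmk+ (filled) and Gzmk-negative (open) CD8 cells of the control (circles) and cKO (squares) library, with Poisson 95% intervals for counting error. Ccl5, Gzma and Gzmb are highest in the cKO Gzmk+ cells, and Pdcd1 and Itgae are higher in both cKO populations than in both control populations.

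Effector transcription factors had smaller ratios than Gzma and Gzmb. Of 11 listed, 10 reached 20 CPM, 3 were higher and 1 lower, with a median log2 ratio of 0.40. Zeb2, a repressor that works with T-bet in terminal effector cells, was at 56.1 CPM in the control and 129 CPM in the cKO set, 2.26-fold higher (1.54 to 3.59), a call that ended with at least 2 Gzmk UMIs (log2 ratio 0.57). Runx3, which sets the CD8 lineage and its cytotoxic genes, was at 233 CPM in the control and 377 CPM in the cKO set, 1.61-fold higher (1.32 to 1.99), a call that ended without mitochondrial and ribosomal protein genes. Ikzf3, which encodes the lymphoid factor Aiolos, was 1.72-fold higher (1.31 to 2.33). Id2, an inhibitor of E proteins, was lower, at 641 CPM in the control and 286 CPM in the cKO set, 2.24-fold lower (1.96 to 2.55). Eomes, the T-box relative of Tbx21, was at 108 CPM in the control and 160.2 CPM in the cKO set, 1.47-fold higher (1.11 to 2.04), which did not meet the rule.

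Genes of naive and memory cells were lower on balance. Of 14 listed, 13 reached 20 CPM, 1 was higher and 5 lower, with a median log2 ratio of -0.45. Il7r, the receptor for the survival cytokine interleukin 7, was at 349.9 CPM in the control and 97 CPM in the cKO set, 3.61-fold lower (2.98 to 4.35). Tcf7, which encodes the stem and memory factor TCF-1, was at 150.3 CPM in the control and 91.6 CPM in the cKO set, 1.65-fold lower (1.25 to 2.13), and its partner Lef1 was 2.57-fold lower (1.57 to 3.94). S1pr1, the receptor that guides exit from the thymus into blood, was the 1 gene higher, at 49.3 CPM in the control and 137 CPM in the cKO set, 2.71-fold higher (1.81 to 4.46). Klf2, which drives S1pr1, was at 825 CPM in the control and 767 CPM in the cKO set and did not meet the rule.

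Natural killer receptors split by gene. Of 21 listed, 13 reached 20 CPM, 3 were higher and 5 lower, with a median log2 ratio of 0.35. Klrg1, an inhibitory receptor of terminal effector cells, was at 47.1 CPM in the control and 120.3 CPM in the cKO set, 2.5-fold higher (1.65 to 4.16). Klrk1, which encodes the activating receptor NKG2D, was at 368 CPM in the control and 78.6 CPM in the cKO set, 4.68-fold lower (3.85 to 5.66), and after thinning was held by 34.5% and 6.77% of cells. Fcer1g, a signalling adaptor, was 5.98-fold lower (3.4 to 10.2). Of the Ly49 receptors, Klra1 was 15.3-fold higher (5.24 to 158) on 2 control UMIs and Klra9 was 11.3-fold lower (7.23 to 17.8) with 36 of its 47 control UMIs in 1 cell. Ly49 genes are near copies of each other, so reads may be split among them and both values are uncertain.

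Adhesion and homing genes differed in both directions. Of 19 listed, all reached 20 CPM, 6 were higher and 6 lower, with a median log2 ratio of -0.38. Leaving mitochondrial and ribosomal protein genes out of the totals gave 6 higher and 9 lower. Itgae, the CD103 chain that binds epithelial cadherin, was at 35.9 CPM in the control and 219 CPM in the cKO set, 5.92-fold higher (3.74 to 10.7). Itgb7, its partner chain, was 2.72-fold higher (2.2 to 3.42), and Itga4, which also pairs with it, was at 390.2 CPM in the control and 699 CPM in the cKO set, 1.79-fold higher (1.54 to 2.1), a call that ended with at least 2 Gzmk UMIs (log2 ratio 0.46). Ccr9, a receptor for a thymic and gut chemokine, was at 2.24 CPM in the control and 39.2 CPM in the cKO set and 11.7-fold (3.09 to 695) higher on 1 control UMI. Cx3cr1, a receptor of circulating effector cells, was 3.14-fold higher (2.12 to 5.09), with 12 of its 23 control UMIs in 1 cell.

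Summed over its genes, the gut epithelium list was at 0 CPM in the control set and 79.1 CPM in the cKO set, beside 55.6 CPM in cKO Gzmk-negative CD8 cells. Its part in the higher Itgae, Itgb7 and Ccr9 was not tested. In cKO Gzmk-negative CD8 cells Itgae was at 139.7 CPM and Ccr9 at 41.3 CPM, so both were above the control cells there too. On the lower side, Itga1, the CD49a collagen receptor, was 2.39-fold lower (1.77 to 3.15). Ccr2, a receptor for inflammatory chemokines, was at 197 CPM in the control and 75 CPM in the cKO set, 2.64-fold lower (2.05 to 3.35). Gpr183, a receptor for oxysterols, was 3.31-fold lower (2.48 to 4.35), and Cd69, which holds cells in tissue by removing S1PR1, was 1.71-fold lower (1.44 to 2.01). Cxcr6, a receptor of resident lymphocytes, was at 341 CPM in the control and 253 CPM in the cKO set and did not meet the rule.

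Genes of the T cell receptor complex and its kinases met the size rule about as often as all genes did. Of 13 listed genes that the selection did not use, all reached 20 CPM, 1 was higher and 1 lower, beside 11.1% higher and 8.13% lower over all genes tested. The higher gene was Cd247, the zeta chain, 1.85-fold higher (1.39 to 2.58), and the lower gene Cd28, the costimulatory receptor, 1.76-fold lower (1.44 to 2.13). Genes induced early by receptor signals were lower more often, 5 of 12 that reached 20 CPM, with 1 higher. Fos was at 527 CPM in the control and 234 CPM in the cKO set, 2.26-fold lower (1.94 to 2.6), and Dusp1, a phosphatase that limits MAP kinase signals, was 2.63-fold lower (2.06 to 3.29). The 1 higher gene was Tnfrsf9, the costimulatory receptor 4-1BB, at 6.73 CPM in the control and 77.7 CPM in the cKO set, 9.91-fold higher (3.91 to 56.3). Of 15 cytokine receptor genes, 11 reached 20 CPM, 3 were higher and 1 lower, with a median of 0.02 that was -0.08 and -0.25 under the other scalings.

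Among innate-like and agonist-selection genes, Ikzf2, which encodes Helios, was at 20.2 CPM in the control and 338 CPM in the cKO set, 15.9-fold higher (8.79 to 36.7). In thinned cells the shares with Ikzf2 were 5.17% and 36.3%. Ikzf2 was also called higher in the cKO library among Gzmk-negative CD8 cells, and it did not meet the rule between cKO Gzmk+ and Gzmk-negative cells. Izumo1r, the folate receptor 4 gene, was lower, 14.6-fold lower (7.07 to 32.1), with 13 of its 21 control UMIs in 1 cell. Zbtb16, which encodes PLZF, the defining factor of iNKT cells, was near 0 in both, at 2.24 CPM in the control and 3.18 CPM in the cKO set. The rule removed cells with a Trav11 UMI, but variable segments are rarely read in these libraries, so an iNKT receptor without such a read would pass.

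Among 10 cycling genes the cKO set was higher for 4 and lower for 0, with a median log2 ratio of 0.52. Mki67, a protein of dividing nuclei, was at 85.2 CPM in the control and 75.2 CPM in the cKO set, and Top2a, a topoisomerase of the S and G2 phases, at 132 CPM in the control and 117 CPM in the cKO set, and neither met the rule. The control value of Hist1h1b, a linker histone of S phase, came from 1 cell that held 65 of 66 UMIs. Of 9 interferon-stimulated genes in the files, 1 was higher and 2 lower, with a median of -0.14; without mitochondrial and ribosomal protein genes in the totals, 0 were higher and 3 lower.

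Outside the lists, the largest ratios among genes that reached 50 CPM included several with 0 or 1 control UMI. Fxyd7, a regulator of the sodium pump, had 0 control UMIs and 74.5 CPM in cKO cells, at least 11.1-fold higher. Gpx8, a glutathione peroxidase family member, had 0 and 64.9 CPM, at least 9.65-fold higher. Calca, the calcitonin gene, Cib2, a calcium-binding protein gene, and Itgad, an integrin alpha chain gene, each rested on 1 control UMI, with 75.4, 68.3 and 61.5 CPM in the cKO cells. Within the cKO library Calca was lower in Gzmk+ than in Gzmk-negative CD8 cells (log2 ratio -0.71), a direction that turned under some settings. Itgad (0.71) and Cib2 were higher in that comparison. Lgals3, which encodes galectin-3, was better measured, at 29.2 CPM in the control and 545 CPM in the cKO set, 18-fold higher (10.9 to 35.1).

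On the lower side Serpina3g, a protease inhibitor gene, was at 76.3 CPM in the control and 3.18 CPM in the cKO set, 23.4-fold lower (12.3 to 49.4), and its 34 control UMIs were spread over 17 cells. Apoe, a lipid carrier of macrophages, was 6.07-fold lower (3.57 to 10.0) with 25 of 27 control UMIs in 1 cell, and its log2 ratio turned to 0.97 with at least 2 Gzmk UMIs and to 1.39 with at most 5% mitochondrial UMIs. Unc119, an adaptor of Src family kinases, was 5.39-fold lower (3.32 to 8.5), Dennd2d, a Rab activator, 4.29-fold lower (2.56 to 6.88), and AB124611 4.44-fold lower (2.55 to 7.35). The lower Serpina3g therefore does not rest on 1 control cell, while the lower Apoe does.

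Markers of other lineages were low in both sets, with exceptions. B cell genes summed to 44.9 CPM in control and 35.3 CPM in cKO Gzmk+ CD8 cells, and the myeloid and dendritic list to 168 and 225 CPM. Double-positive thymocyte genes summed to 0 and 0.735 CPM, and erythroid genes to 0 and 1.71 CPM. Ncr1, the defining natural killer receptor, was at 0 CPM in the control and 0.735 CPM in the cKO set, and Klrb1c, which encodes NK1.1, at 13.5 CPM in the control and 0 CPM in the cKO set. The gamma-delta list summed to 35.9 and 387 CPM, which came from gamma chain genes described with the receptor segments. Scrublet called 0 control and 10 cKO doublets among the kept cells, under 0.5%, so it did not work as a caller and no cell was removed; of the cells in the top 5% of its score, 2 were control and 29 cKO Gzmk+ CD8 cells.

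The nearest cells by rule were the Gzmk-negative CD8 cells, 522 in the control and 71 in the cKO library. Gzmk chose the groups, so the comparison within each library is a description. In the cKO library 454 of 5952 genes (7.63%) were higher and 430 (7.22%) lower in Gzmk+ CD8 cells; in the control library 654 of 5760 (11.4%) were higher and 152 (2.64%) lower. The control split depends on scaling, with 81.1% of calls higher as summed, 59.5% with median-ratio scaling and 53.3% without mitochondrial and ribosomal protein genes. Of 5288 genes tested in both, 341 were higher in the cKO and 563 in the control library, and 104 in both. The 104 were 30.5% of the cKO and 18.5% of the control genes. Lower genes numbered 333 in the cKO and 127 in the control library, and 49 in both, 14.7% and 38.6%. Another 33 genes were called in opposite directions, so most calls of either library were not shared.

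Part of the effector genes were higher with Gzmk in both libraries. Of 13 granule genes that reached 20 CPM, 8 were higher and 1 lower (Ctsw) in the cKO Gzmk+ cells, with a median log2 ratio of 0.84 beside 0.02 over all genes, and 4 were higher and 0 lower in the control ones, with 0.44 beside 0.23. Prf1 was 1.61-fold higher (1.27 to 2.09) in the cKO, a call that ended without mitochondrial and ribosomal protein genes, and 1.36-fold higher (0.974 to 1.84) in the control library, which did not meet the rule. Gzma was 18.5-fold (17 to 20.1) higher in cKO and 8.28-fold (7.29 to 9.41) higher in control Gzmk+ cells. For Ccl5 the ratios were 5.28-fold (5.11 to 5.47) and 4.48-fold (4.32 to 4.65), for Gzmb 6.36-fold (5.53 to 7.37) and 4.12-fold (3.27 to 5.14), and for Klrg1 5.45-fold (3.38 to 10.1) and 14.2-fold (6.78 to 32.2). Fasl was 3.2-fold (2.17 to 5.15) and 2.82-fold (1.91 to 4.01) higher, and Ifng 2.05-fold (1.55 to 2.83) and 2.54-fold (1.87 to 3.36). Some control ratios rest on few cells. The top 5 of 61 control Gzmk+ cells held 95.1% of the Gzma, 75.6% of the Gzmb and 71.4% of the Klrg1 UMIs. Per cell, Gzma and Gzmb had a median of 0 in both control populations. Control cells with 1 Gzmk UMI had Gzma at 84.1 CPM, below the 133 CPM of those with none. Of 10 effector transcription factors, 4 were higher and 0 lower in each library, with only Prdm1 called in both. Prdm1, which encodes the effector factor Blimp-1, was at 3.53 CPM in control Gzmk-negative, 22.4 in control Gzmk+, 4.28 in cKO Gzmk-negative and 39.4 CPM in cKO Gzmk+ cells. Eomes differed between libraries, at 140.3, 108, 34.2 and 160.2 CPM in that order, and only the cKO pair met the size rule.

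Naive and memory genes stood against Gzmk, with 11 of 14 lower and 0 higher in the cKO library and 8 of 14 lower and 0 higher in the control library. Ccr7, a receptor for homing to lymph nodes, was at 87.8 CPM in control Gzmk-negative and 24.7 in control Gzmk+ cells. The cKO values for Ccr7 were 62.7 and 15.2 CPM. Lef1 was 5.33-fold (3.93 to 7.21) lower and Tcf7 3.21-fold (2.69 to 3.81) lower in cKO Gzmk+ cells. Cycling genes were higher in 8 of 10 cases in the cKO library, with Top2a at 14.3 CPM in Gzmk-negative and 117 CPM in Gzmk+ cells. In the control library 3 of the 9 that reached 20 CPM were higher and 1 lower (Ccnb2). Among the 3 was Hist1h1b, with 65 of its 66 UMIs in 1 Gzmk+ cell. Adgrg1, an adhesion receptor of cytotoxic lymphocytes, was at 1.43 CPM, from 1 UMI, in cKO Gzmk-negative and 59.3 CPM in cKO Gzmk+ cells.

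The 71 cKO Gzmk-negative CD8 cells were mixed. They held stromal genes at 117 CPM, the myeloid and dendritic list at 924 CPM and double-positive thymocyte genes at 74.1 CPM, against 2.45, 225 and 0.735 CPM in the cKO Gzmk+ cells. Several of the lowest ratios of the Gzmk+ cells are genes of those lists, among them Col3a1, a collagen gene, and Dntt, the thymocyte enzyme that adds bases at receptor joints, at 58.5 CPM in the Gzmk-negative and 0.245 CPM in the Gzmk+ cells. Col3a1 was 46-fold (19.9 to 162) lower, but its call ended at a 5% mitochondrial limit (log2 ratio -0.70) and without the highest doublet scores (-1.06), and its direction turned with at least 3 Cd8 UMIs (0.77). The part of these other-lineage RNAs in the remaining differences was not tested. Xcl1 was 23.4-fold (19.2 to 28.9) lower in cKO and 2.35-fold (1.8 to 3.17) lower in control Gzmk+ cells. Tyrobp, an adaptor of natural killer and myeloid cells, was 17.5-fold (9.96 to 33.6) lower in cKO Gzmk+ cells, a call that ended with at least 3 Cd8 UMIs (log2 ratio -2.03), without cells holding B cell or Ncr1 RNA (-2.15) and without those holding gut RNA (-1.55).

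Receptor variable segments were next read from the same counts. The segments are printed because they were the most held of their kind among cKO Gzmk+ CD8 cells. Each sequence is the last 100 bases of the variable exon in GRCm38, 5′ to 3′ on the coding strand, and capitals mark the TGT codon of the conserved cysteine before the joint. By gene coordinates, Trav4-4-dv10 is at chr14:53683647-53684177, Trav13-1 at chr14:53545014-53545525 and Trbv12-2 at chr6:41118851-41119364 on the plus strand, and Trgv2 at chr13:19336573-19337167 on the minus strand.
Trav4-4-dv10: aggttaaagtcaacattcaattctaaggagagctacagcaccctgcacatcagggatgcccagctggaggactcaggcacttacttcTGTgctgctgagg
Trav13-1: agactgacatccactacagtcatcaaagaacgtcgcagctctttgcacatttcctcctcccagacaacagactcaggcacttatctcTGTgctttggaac
Trbv12-2: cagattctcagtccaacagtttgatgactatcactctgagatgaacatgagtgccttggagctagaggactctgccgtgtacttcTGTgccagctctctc
Trgv2: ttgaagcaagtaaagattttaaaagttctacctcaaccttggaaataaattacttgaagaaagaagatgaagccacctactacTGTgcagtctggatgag
Libraries of 3′ ends rarely reach these exons, so a cell with no segment UMI says nothing of its receptor. Near copies also limit the names, because Trav4-4-dv10 is 97.7% identical to Trav4d-4 and Trav4n-4 over 351 bases, Trav13-1 is 96.4% identical to Trav13d-1, Trbv12-2 is 88.3% identical to Trbv12-1, and Trgv2 is 95.7% identical to Tcrg-V1.

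Among cKO Gzmk+ CD8 cells a Trav UMI was found in 147 of 401 cells (36.7%), over 40 of 128 segments in the files. Trav4-4-dv10 was held by 29 of 147 cells (19.7%, 13.6 to 27.1%) and took 130 of 334 Trav UMIs (38.9%), up to 12 in a cell. Trav13-1 was held by 20 of 147 cells (13.6%, 8.51 to 20.2%). Trav16 and Trav7-4 followed with 9 cells each and Trav13-2 with 8. Alpha segment use was thus spread over many segments, with 1 in the lead. In cKO Gzmk-negative CD8 cells Trav4-4-dv10 was held by 1 of 23 cells (4.35%, 0.110 to 21.9%), and in control Gzmk-negative CD8 cells by 1 of 74 cells (1.35%, 0.0342 to 7.3%).

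A Trbv UMI was found in 113 cKO Gzmk+ CD8 cells (28.2%), over 18 of 35 segments. Trbv12-2 was held by 29 of 113 cells (25.7%, 17.9 to 34.7%), Trbv3 by 14 cells, Trbv16 and Trbv20 by 11 each and Trbv1 by 10. In control Gzmk-negative CD8 cells Trbv12-2 was held by 11 of 67 cells (16.4%, 8.49 to 27.5%), an overlapping interval. Both an alpha and a beta segment were read in 44 cKO Gzmk+ cells. The most frequent pair was Trav4-4-dv10 with Trbv20, in 6 of the 9 Trav4-4-dv10 cells that had a beta segment. The joint between the segments is not in these counts, so whether the 6 cells share a receptor was not measured. Control Gzmk+ CD8 cells had too few reads to compare, with 12 cells over 10 Trav segments, 11 cells over 9 Trbv segments and no segment in more than 2 cells.

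**Figure D4:**
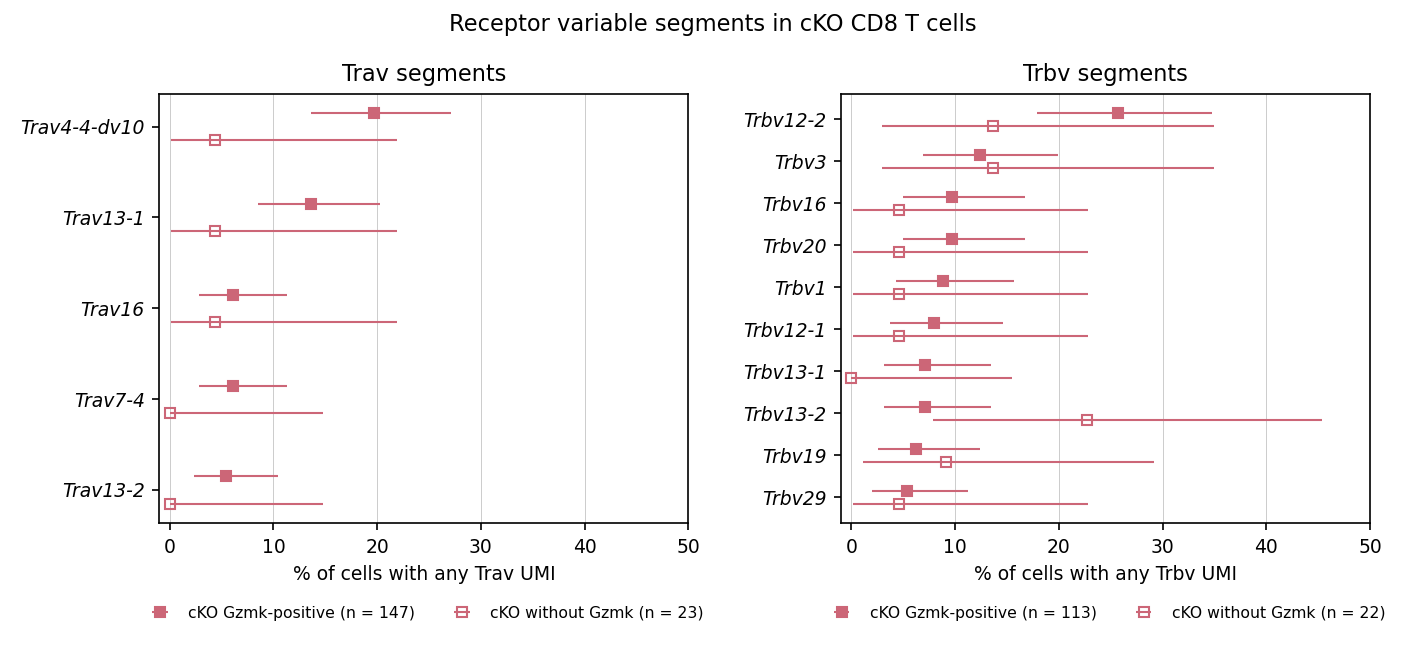
Percent of cKO CD8 cells with any Trav UMI (left) or any Trbv UMI (right) that held each segment reaching 5% in the Gzmk+ cells, for Gzmk+ (filled) and Gzmk-negative (open) cells, with exact binomial 95% intervals. Trav4-4-dv10 is at 19.7% of 147 and Trbv12-2 at 25.7% of 113 Gzmk+ cells, and the intervals of the 2 populations overlap for every segment drawn.

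Gamma chain genes were the other receptor difference. A gamma variable UMI was found in 169 cKO and 2 control Gzmk+ CD8 cells. Trgv2, a gamma variable segment, was at 2.24 CPM in the control and 107 CPM in the cKO set, 31.9-fold (8.52 to 1889.5) higher on 1 control UMI, with 437 UMIs in 156 cKO cells. Tcrg-C2, a gamma constant gene, was at 13.5 CPM in the control and 182 CPM in the cKO set, 12.5-fold higher (6.18 to 37), and 73.0% of the 200 cKO cells that held it also held Trgv2, against 4.98% of the others. Trdc, the delta constant gene that defines gamma-delta T cells, was nearly absent, with 66 UMIs in 4 cKO cells, 37 of them in 1 cell, and 0 UMIs in control cells. Trac, the alpha constant gene, was at 801 CPM in the control and 1074 CPM in the cKO set and was held by 99.5% of the cKO cells. In Gzmk-negative CD8 cells Tcrg-C2 was at 31.3 CPM in the control and 32.8 CPM in the cKO library, and Trgv2 at 8.7 and 29.9 CPM. Nearly all cells with gamma chain RNA therefore held alpha constant RNA and no delta constant RNA.

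How the cKO Gzmk+ CD8 cells differed among themselves was described by splitting them on a gene. After thinning, 113 cells held Cxcr6 and 286 did not, with median depths of 8543 and 9402 UMIs. Of 5909 genes tested in this split, 343 were higher and 257 lower in the cells with Cxcr6. Values are given for genes of circulation, of residence and of receptor stimulation, and they did not all go the same way. S1pr1 was at 38.3 against 171 CPM (4.42-fold lower, 3.25 to 6.3), Klf2 at 395 against 898 CPM (2.27-fold lower, 2.05 to 2.52), and Cx3cr1 at 91.6 against 191 CPM (2.07-fold lower, 1.68 to 2.61). Cells with Cxcr6 were thus lower for these genes of circulating cells. Itgae was at 386 against 159.8 CPM (2.42-fold higher, 2.11 to 2.76), Lag3 at 140.2 against 51.5 CPM (2.72-fold higher, 2.16 to 3.43), and Pdcd1 at 187 against 80.1 CPM (2.34-fold higher, 1.93 to 2.83). Cd69, a gene of both residence and stimulation, was at 237 against 221 CPM (1.08-fold higher, 0.927 to 1.25), Ifng at 115 against 155 CPM (1.35-fold lower, 1.1 to 1.66), Prf1 at 149.5 against 171 CPM (1.14-fold lower, 0.957 to 1.38) and Xcl1 at 25.2 against 31.2 CPM (1.22-fold lower, 0.800 to 1.98). None of these 4 was higher beyond counting error. Gzmk, which the rule required in every cell, was at 769 against 707 CPM. Gzma was at 20592 against 12194 CPM (1.69-fold higher, 1.66 to 1.72), so Gzma RNA was in both parts of the set.

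Cells with a Trgv2 UMI (156, median 8934 UMIs) were set against those without (245, median 9115). S1pr1 was at 45.6 against 194 CPM (4.23-fold lower, 3.32 to 5.53) and Tcf7 at 22.2 against 135 CPM (6.03-fold lower, 4.3 to 8.91). Pdcd1 was at 189 against 56.7 CPM (3.33-fold higher, 2.73 to 4.11), Itgae at 383 against 116 CPM (3.3-fold higher, 2.87 to 3.81), Ccl3 at 158 against 28.4 CPM (5.56-fold higher, 4.28 to 7.38) and Gzma at 23372 against 8723 CPM (2.68-fold higher, 2.63 to 2.72). Trgv2 and Cxcr6 thus marked cells with the same direction for these named genes, and Cxcr6 itself was at 423 against 147 CPM (2.88-fold higher, 2.53 to 3.28). Other genes differed in direction. Top2a was 1.4-fold higher (1.16 to 1.68) with Trgv2 but 1.46-fold lower (1.16 to 1.86) with Cxcr6. Il7r was 1.35-fold lower (1.09 to 1.68) with Trgv2 but 1.28-fold higher (1.02 to 1.59) with Cxcr6. With Trgv2, Ifng (1.03-fold lower, 0.872 to 1.23) and Prf1 (1.03-fold higher, 0.877 to 1.2) did not differ beyond counting error. Of 5930 genes tested in the Trgv2 split, 450 were higher and 302 lower.

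Cells with a Trav4-4-dv10 UMI (29, median 8656 UMIs) were set against the 118 cells with another Trav segment (median 9933.5). Maf was at 313 against 58 CPM (5.38-fold higher, 3.92 to 7.41), Havcr2 at 163 against 42.2 CPM (3.88-fold higher, 2.56 to 5.82), and Ccl4 at 799.5 against 216 CPM (3.7-fold higher, 3.09 to 4.42). Ifng was at 309 against 127 CPM (2.45-fold higher, 1.86 to 3.18). Tcf7 was at 14.2 against 93.5 CPM (5.87-fold lower, 2.5 to 24.5), and Slamf6, a receptor of stem-like CD8 cells, had 2 UMIs in the Trav4-4-dv10 cells, at 7.11 against 90.5 CPM (10.2-fold lower, 3.45 to 106). Pdcd1 was 1.52-fold (1.08 to 2.09) and Lag3 1.93-fold (1.33 to 2.73) higher. Ctla4 was 1.92-fold higher (1.03 to 3.32). Ets1, the targeted gene, was at 231 against 124 CPM (1.88-fold higher, 1.38 to 2.5). The stimulation and effector genes named next had intervals that include 1. Tox was 1.04-fold lower (0.763 to 1.48), Tox2 1.11-fold higher (0.626 to 1.82), Batf 1.39-fold higher (0.942 to 1.99) and Prf1 1.29-fold higher (0.926 to 1.75). Of 6246 genes tested in this split, 454 were higher and 203 lower. These splits were chosen after the values were seen, and the 29 cells may come from 1 or both mice.

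**Figure D5:**
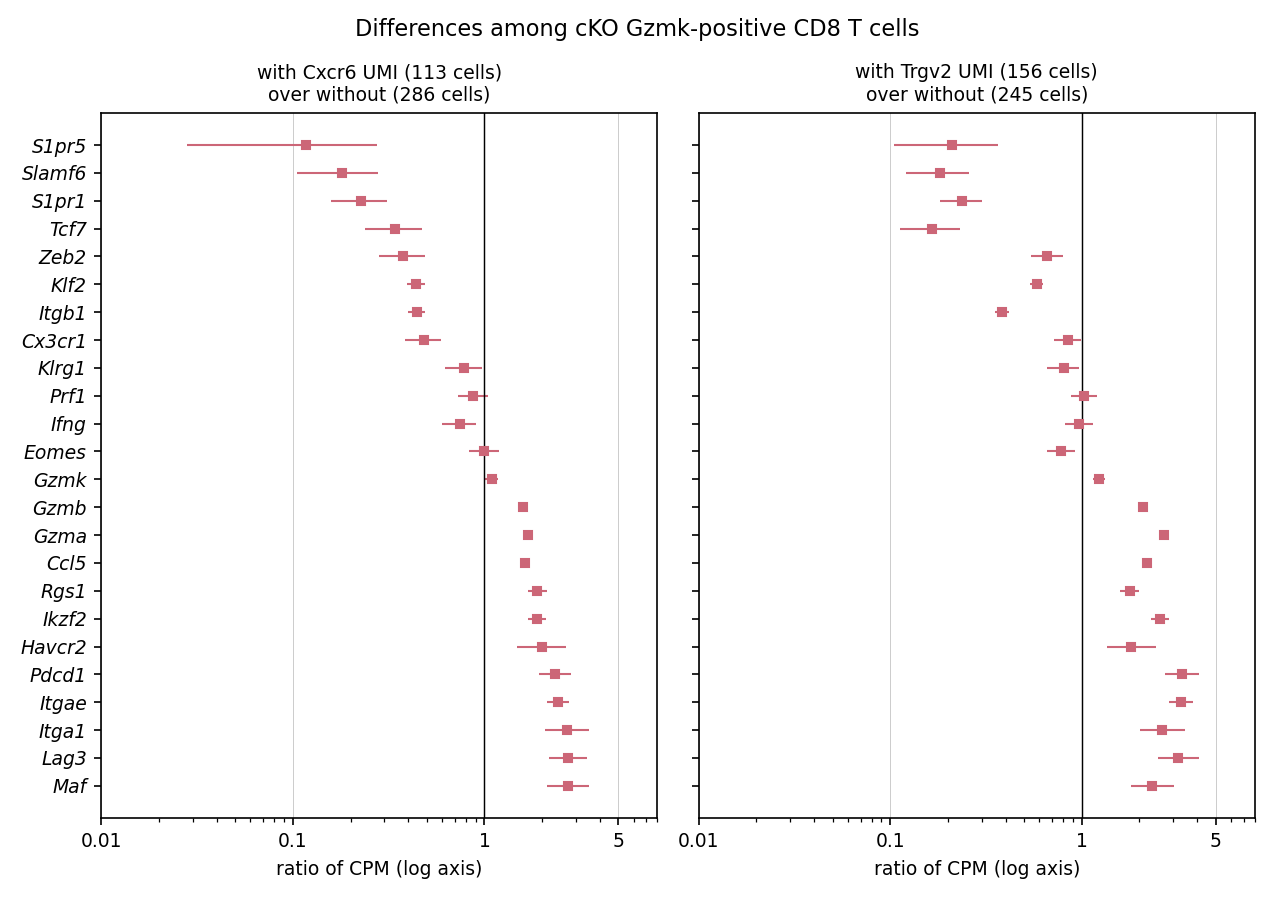
Ratio of CPM (log axis) of named genes in cKO Gzmk+ CD8 cells with over without a Cxcr6 UMI after thinning (left) or a Trgv2 UMI (right), with 95% counting intervals; the line marks a ratio of 1. S1pr1, Klf2 and Tcf7 lie below 1 and Pdcd1, Itgae and Lag3 above 1 in both panels.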

How the data were processed

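Single-cell 3′ gene expression was measured in 1 control and 1 cKO library of YFP+ thymic cells. The deposited values are raw UMI counts per gene and barcode; the submitters' processing notes name Cell Ranger 2.1.1 and the mm10 build, and the matrix header gives software version 3.0.0. The sources used here give neither the authors' filters nor their annotation.

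Groups came from the genotype labels. Kept cells had at least 500 genes and at most 10% mitochondrial UMIs. For each population UMIs were summed over cells and divided by the summed total to give CPM, with exact Poisson intervals. Ratios had 0.5 UMIs added to both sums and an exact conditional binomial 95% interval. The size rule asked for 1.5-fold, 20 CPM in the higher group and an interval excluding 1; on simulated counts it was checked against known fold changes. Where a control sum was 0, the bound used a floor of 3 counts. Shares had exact Clopper-Pearson intervals. Intervals and floors cover counting error only. Thinning drew 1500 UMIs per cell without replacement, leaving out 3 control and 2 cKO Gzmk+ cells. Totals per library were 35210431 and 39979742 UMIs, and sums over the Gzmk+ CD8 cells 445879 and 4082301 UMIs, so the control sums set the precision. B cells had at least 2 Cd79a UMIs and no Cd3 UMI.

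Named genes were Ets1, Tbx21 and the markers, the 10 highest and 10 lowest ratios past the size rule at 50 CPM or more in each comparison, up to 8 genes per list by level in the cKO cells, and segments held by at least 5% of cells with a segment of that kind; receptor segment, sex-linked, mitochondrial, ribosomal protein, Gm and Rik genes stood outside the ratio ranks. The members and lists were chosen with earlier results of these data known. Other genes named with values were chosen after their values were seen. Scalings, filters, doublet scores and thresholds were varied. Gene positions come from GENCODE on GRCm38, which matched 99.6% of features, and promoters from RefSeq. Intervals were computed with scipy 1.17.1, tables with pandas 2.3.3 and numpy 2.4.6 in Python 3.11.15, doublet scores with scanpy 1.11.5 and alignments with Biopython 1.88.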

Additional observations from a re-analysis of the deposited data

How the results depend on the processing

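No paired analysis was possible because each genotype is 1 library. With 1 library of 2 pooled mice a genotype, no value has a replicate, and depth, mitochondrial share and gut RNA differ with genotype and cannot be told apart from it. The 61 control cells with 445879 UMIs limit the genotype ratios: a gene at 0 there is compared with a floor of 3 counts.

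The share of kept cKO cells was 5.02% with at least 300 genes, 9.37% with at least 1000 genes, 9.45% at a 5% and 5.72% at a 20% mitochondrial limit, 6.08% with at least 2 Gzmk UMIs, 9.76% without cells holding gut RNA (an alternative chosen after seeing the data) and 5.19% after thinning. The control share was 1.30% with at least 1000 genes, 0.446% with at least 2 Gzmk UMIs and 0.346% after thinning. Of CD8 T cells, the Gzmk+ share was 76.1% in the cKO and 5.66% in the control library with at least 2 Gzmk UMIs, and 57.9% and 5.73% after thinning. It was higher in the cKO library under every alternative run.

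Between genotypes, higher and lower genes numbered 402 and 773 without mitochondrial and ribosomal protein genes, 1357 and 854 with every cell weighted equally, and 382 and 310 at 2-fold. Between Gzmk+ and Gzmk-negative cKO cells they numbered 709 and 745 with equal weights and 217 and 213 at 2-fold, and 844 were lower with no minimum level. Equal weights carry no counting interval, so more genes pass by construction. They kept 601 of the 681 higher and 424 of the 499 lower genes between genotypes, and 383 of 454 and 352 of 430 in the cKO library. Lag3 was held by 7.23% of cKO cells thinned to 1000 UMIs, and Trgv2 by 17.0% thinned to 2500 UMIs.

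Of 65 named genes between genotypes, 1012 gene and setting pairs kept their call or its absence, 16 lost it, 8 gained it and 4 turned over; in the cKO library the counts were 978, 42, 11 and 9. Between genotypes, the log2 ratio of Apoe became 1.39 at a 5% mitochondrial limit and 0.97 with at least 2 Gzmk UMIs, and with equal weights H2-Eb1 became -0.76 and Hist1h1b 0.68. In the cKO library, with at least 3 Cd8 UMIs, Apoe became 2.1, Calca 1.63, Col3a1 0.77 and Sparc 0.77. At a 5% mitochondrial limit Apoe became 0.63 and Sparc 0.88. Calca became 1.09 without cells holding B cell or Ncr1 RNA and 2.32 without those holding gut RNA, where H2-Eb1 became 1.37. The cause was not tested.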
